A study of Homo sapiens with 4 samples.

Results

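The 9 genes described here encode the enzymes of the urea cycle and the mitochondrial carriers that serve it: CPS1, OTC, ASS1, ASL, ARG1, ARG2, NAGS, SLC25A15 and SLC25A13. They were chosen by symbol, and each was found once among the 20226 genes listed for every library. RNA sequencing measured them in Huh7, an established line from a human hepatocellular carcinoma. Knockdown cells with a hairpin RNA directed at NUP210 (shNUP210, 2 libraries), a membrane glycoprotein of the nuclear pore, were compared with control cells (shCon, 2 libraries), which the titles name as a control hairpin and the genotype field calls wild type. All 4 libraries are labelled untreated. The labels do not give the hairpin sequence, the number of hairpins or clones, or whether each library is its own culture. P-values here therefore describe library-to-library spread, possibly of technical origin only.

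The urea cycle turns toxic ammonia into urea and runs in full mainly in the hepatocytes around the portal veins. It starts in the mitochondrion, where NAGS makes the activator that CPS1 needs to build carbamoyl phosphate from ammonia, and OTC joins that to ornithine to give citrulline. Citrulline leaves for the cytosol in exchange for ornithine through SLC25A15, ASS1 condenses it with aspartate supplied through SLC25A13, ASL splits the product into arginine and fumarate, and arginase releases urea and ornithine. ARG1 is the cytosolic arginase of hepatocytes and ARG2 the mitochondrial one, which is found in many tissues.

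Values are TPM, an abundance corrected for transcript length and library total, so levels can be compared between genes. Between 13675 and 14564 genes were at 1 TPM or more in a library. TPM keep no read depth: from the lowest values of single-transcript genes, 1 fragment on a 1 kb transcript was worth about 0.53 to 0.67 TPM. NUP210 was at 10.1 and 9.85 TPM in the knockdown libraries and at 32.8 and 27.3 TPM in the shCon libraries, so the targeted transcript was lower in both knockdown libraries (limma adjusted p = 0.0432, and 0.162 to 0.167 without any 1 library). Changes were tested with limma on log2(TPM + 1) over the 10140 genes with at least 5 TPM in 2 libraries, with Benjamini-Hochberg adjusted p-values over all of them and a threshold of 0.05. Fold changes on this scale understate those of low genes. Across tested genes the median log2 fold change was 0.23, and it was between 0.0093 and 0.047 after the 4 other scalings tried. In TPM as deposited 290 genes were called, 181 higher and 109 lower. Each other scaling gave its own set of calls, with 87 higher and 209 lower after median-ratio scaling, 92 and 230 after upper-quartile scaling, 84 and 209 after trimmed-mean scaling and 87 and 116 after quantile normalization.

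Control Huh7 cells held the 9 transcripts at very unequal levels. ASL and ASS1 led with shCon means of 107 and 85.7 TPM, followed by SLC25A15, ARG2, SLC25A13 and ARG1 between 21.4 and 28.1 TPM, whose ranges over the 2 libraries overlapped. NAGS, at 16.4 TPM, overlapped ARG1 and SLC25A13. CPS1, among the most abundant mitochondrial proteins of liver, was at 6.06 TPM, and OTC at 1.39 TPM. In the shNUP210 libraries the order was different. ARG2 stood first at 52.0 TPM, ahead of ASL at 42.4 TPM, and SLC25A13 (27.7 TPM) and ASS1 (26.7 TPM) had overlapping ranges. CPS1 and OTC, whose ranges overlapped, were at the bottom with 0.71 and 0.65 TPM. The plot of the 9 genes by library shows this spread of levels.

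**Figure D1:**
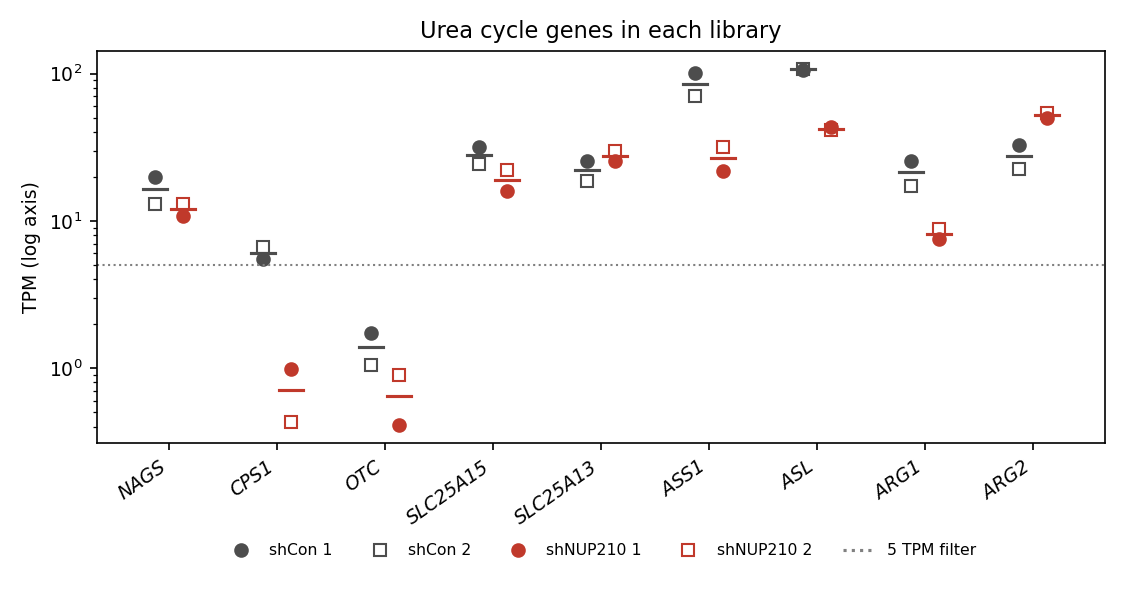
TPM on a log axis for each of the 9 urea cycle genes in the shCon (grey) and shNUP210 (red) libraries, with bars at the group means of 2 libraries and a dotted line at the 5 TPM filter. Both shNUP210 libraries lie below both shCon libraries for 6 genes, including the untested OTC, and above them for ARG2. Over all tested genes these shares were 14.3% below and 42.9% above.

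After NUP210 knockdown ASS1 and ASL, the consecutive enzymes that turn citrulline into arginine, fell to 0.311 and 0.396 of their control means. CPS1 and ARG1 were also lower in both knockdown libraries and ARG2 was higher in both, but these 3 did not pass the test. Of the 9 genes, 8 could be tested, and 2 were called lower, 0 higher and 6 not called. Over all tested genes, 2.86% were called, 1.07% lower and 1.79% higher. At an unadjusted p under 0.05, 4 of the 8 were lower (5.95% of all tested genes) and 1 was higher (18.4%), with 24.3% of all tested genes past it in either direction. The 8 include CPS1, which reached 5 TPM in the shCon libraries alone and so entered the test through the group where it was high. Both shNUP210 libraries lay below both shCon libraries for 5 of the 8, against 14.3% of all tested genes, and above them for 1, against 42.9%, and 57.3% of all tested genes had groups that did not overlap. A log2 fold change of -1 or lower was seen for 4 of the 8 and for 2.63% of all tested genes. The median log2 fold change of the 8 was -0.90, beside 0.23 over the tested genes. CPS1 (-2.06) is in that median. It is also in the counts lower at an unadjusted p, lower without overlap, and at -1 or lower. The other members tested had -1.65 (ASS1), -1.32 (ASL), -1.27 (ARG1), -0.54 (SLC25A15), -0.41 (NAGS), 0.33 (SLC25A13) and 0.91 (ARG2).

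**Figure D2:**
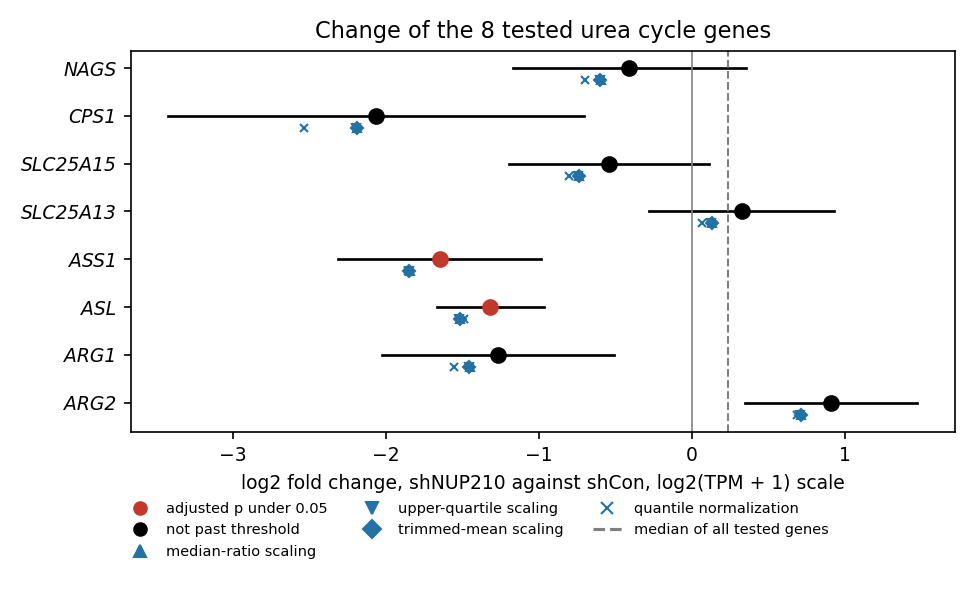
Log2 fold changes (shNUP210 against shCon) of the 8 tested genes with 95% intervals from limma, n = 2 libraries per group. Blue marks give the same value under 4 other scalings, and the dashed line is the median of all tested genes (0.23). ASS1 (-1.65) and ASL (-1.32) are the genes past the threshold.

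ASS1, argininosuccinate synthase (ENSG00000130707, GRCh38 chromosome 9, 130444929 to 130501274, plus strand), was at 21.8 and 31.5 TPM in the knockdown libraries and at 101.2 and 70.3 TPM in the shCon libraries. The groups were far apart, and the 2 libraries within each group also differed. The means were 26.7 ± 6.9 and 85.7 ± 21.8 TPM (SD, n = 2 each). ASS1 fell by 1.65 on the log2 scale (SE 0.27, limma adjusted p = 0.0455). ASL, argininosuccinate lyase (ENSG00000126522, chromosome 7, 66075798 to 66093558, plus strand), was at 43.5 and 41.3 TPM against 105.6 and 108.3 TPM. Here the libraries of a group lay close together. ASL fell by 1.32 (SE 0.14, limma adjusted p = 0.0213), from 107.0 ± 1.9 to 42.4 ± 1.6 TPM (SD, n = 2). Both stayed past the threshold under the 4 other scalings, with adjusted p of 0.0334 to 0.0403 for ASS1 and 0.0116 to 0.0147 for ASL. Without any 1 of the 4 libraries neither passed (limma adjusted p 0.115 to 0.161 for ASS1 and 0.104 to 0.136 for ASL), nor with no filter (0.148 and 0.0764) or no mean-variance trend (0.134 and 0.0991), and ASS1 alone also missed it with a pseudocount of 0.1 (0.0519) and a filter of 1 TPM in 2 libraries (0.0829). ASS1 has processed pseudogenes to which reads could be assigned. One of them, ASS1P12, was at 0.56 and 1.83 TPM in the knockdown libraries and 1.42 and 2.41 TPM in the shCon libraries, which overlap. No exon of another listed gene overlapped ASS1 or ASL.

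The ASS1 and ASL values can be read beside their promoters, which are shown because these 2 genes passed the test together, with ARG1 and ARG2 for the arginase pair described below. The sequences are from RefSeq (GRCh38.p14), whose windows run from 250 bases before a start site to 50 after it and were found for all 9 genes (12 windows). Each is printed up to the base before the RefSeq start of its window or the GENCODE gene start, whichever comes first. For ASS1 the window nearest the GENCODE gene start is printed. It lies past another RefSeq start of ASS1, at chr9:130444707, whose own window held no E-box. Capitals mark an E-box (CACGTG, bound by factors such as MYC), a CCAAT box or a cyclic AMP response element (CRE, TGACGTCA). All were searched on both strands, and the CCAAT box (CCAAT) reads here as ATTGG on the printed strand. The 30 bases around the second CRE of ARG2 lie past its gene start in GENCODE but before the RefSeq start.
ASS1 (chr9:130444711-130444928, plus strand): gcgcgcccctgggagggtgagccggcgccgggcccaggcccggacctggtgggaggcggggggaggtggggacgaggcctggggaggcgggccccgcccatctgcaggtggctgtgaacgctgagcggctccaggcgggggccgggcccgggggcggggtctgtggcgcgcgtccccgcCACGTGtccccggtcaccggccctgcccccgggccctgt
ASL (chr7:66075569-66075797, plus strand): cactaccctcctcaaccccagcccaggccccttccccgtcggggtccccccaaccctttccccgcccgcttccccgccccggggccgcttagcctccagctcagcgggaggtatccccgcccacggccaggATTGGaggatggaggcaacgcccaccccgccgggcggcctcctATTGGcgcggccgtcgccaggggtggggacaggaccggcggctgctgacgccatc
ARG1 (chr6:131572976-131573143, plus strand): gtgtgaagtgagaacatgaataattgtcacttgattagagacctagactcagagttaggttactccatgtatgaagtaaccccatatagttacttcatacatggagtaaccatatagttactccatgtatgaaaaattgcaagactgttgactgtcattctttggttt
ARG2 (chr14:67619670-67619797, plus strand): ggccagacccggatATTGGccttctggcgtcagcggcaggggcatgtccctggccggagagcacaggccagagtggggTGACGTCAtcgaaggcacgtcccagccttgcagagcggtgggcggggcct
ARG2, around its second CRE (chr14:67619845-67619874, plus strand): caatgtggcggTGACGTCAcggggcgggcg
The ASS1 stretch is 81.7% G and C and holds an E-box, a motif in 7.26% of the 35116 RefSeq windows. That E-box is 71 bases before the RefSeq start at chr9:130444961 and past the start at chr9:130444707. The ASL stretch (74.2% G and C) holds CCAAT boxes 119 and 76 bases before the start, and 34.6% of all windows have at least 1. ARG2 has a CRE 172 and another 64 bases before its start. A CRE is in 1.85% of windows, and 21 of the 35116 hold 2 or more. ARG1, at 35.7% G and C, like OTC, matched none of the motifs searched, which also included a GC box (GGGCGG, in 45.0% of windows), a C/EBP motif (TTGCNNAA, 10.5%) and an HNF4 motif (CAAAGTCCA, 0.384%). Over the 9 genes, an E-box was in windows of 3 (SLC25A13 and, in 1 of their windows each, ASS1 and CPS1). A CRE was in windows of 1, a CCAAT box of 4, a GC box of 6, and the C/EBP and HNF4 motifs of 0. The E-box windows thus belong to ASS1, which fell, and to CPS1 and SLC25A13, which did not pass the test. The CCAAT windows belong to ASL, which fell, and to CPS1, SLC25A13 and ARG2, which did not pass the test. Of these, CPS1 was lower and ARG2 higher in both knockdown libraries. A match is a description of these letters and not evidence of binding.

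The arginases differed in direction. ARG1 (ENSG00000118520, chromosome 6, 131573144 to 131584332, plus strand) was at 7.55 and 8.79 TPM in the knockdown libraries and at 25.6 and 17.2 TPM in the shCon libraries. Its groups did not overlap, but the control libraries were wide apart. The log2 fold change was -1.27 (95% interval -2.02 to -0.51, limma adjusted p = 0.0890). ARG2 (ENSG00000081181, chromosome 14, 67619798 to 67651720, plus strand) was at 50.3 and 53.8 TPM against 32.6 and 22.6 TPM. Both knockdown libraries were above both controls. Its log2 fold change was 0.91 (95% interval 0.35 to 1.47, limma adjusted p = 0.0932), and 0.69 to 0.72 under the 4 other scalings. The exons of ARG2 overlap 904 bases of exons of VTI1B, a vesicle fusion gene on the opposite strand. VTI1B was at 63.6 and 66.3 TPM in the knockdown libraries and 35.5 and 34.5 TPM in the shCon libraries, so it moved with ARG2. The labels do not say whether counting used strand. If it did not, reads of the shared exons cannot be told apart. The part of VTI1B in the ARG2 value was not tested.

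A ratio of 2 genes within a library does not depend on a scale factor between libraries. There were 0.786 and 0.758 ARG1 transcripts per ARG2 transcript in the shCon libraries, and 0.150 and 0.163 in the shNUP210 libraries. The libraries of a group differed little beside the gap between groups, and the log2 ratio was lower by 2.30 in knockdown cells (-2.36 to -2.24 without any 1 library). ARG1 was lower and ARG2 higher in both knockdown libraries, so the groups of this ratio could not overlap. The ratio restates those changes, neither of which passed the test, and carries the untested part of VTI1B in ARG2. ASS1 and ASL kept no such separation: their ratio was 0.50 and 0.763 in the knockdown libraries and 0.957 and 0.649 in the shCon libraries, so the groups overlapped. With 2 libraries against 2, an exact permutation test cannot give a p below 0.333, and none was run on these 4 ratios.

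**Figure D3:**
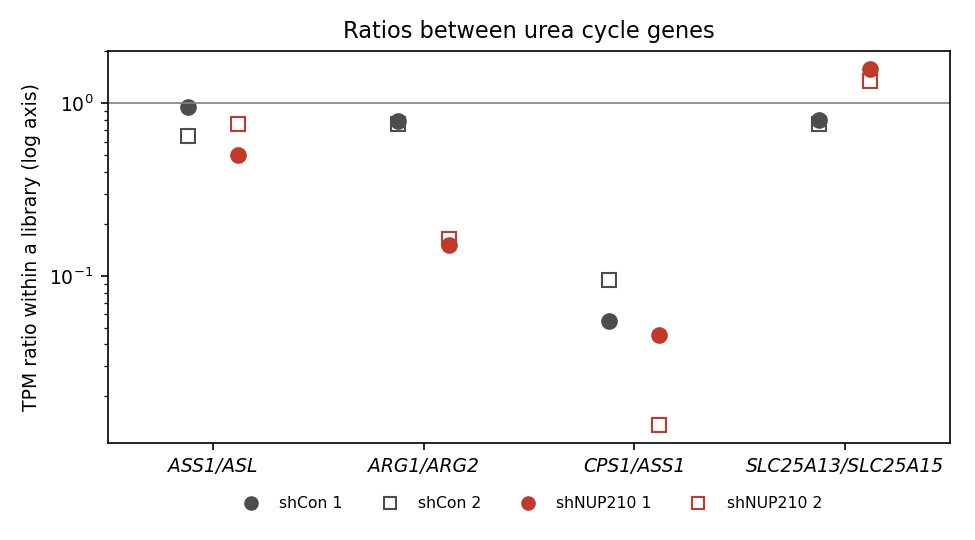
TPM ratios between pairs of urea cycle genes in each library, on a log axis, shCon in grey and shNUP210 in red. ARG1/ARG2 is at 0.758 to 0.786 in shCon and at 0.150 to 0.163 in shNUP210, whereas the ASS1/ASL groups overlap. The ARG1/ARG2 groups had to separate, since ARG1 was lower and ARG2 higher in both knockdown libraries, neither past the threshold.

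The mitochondrial entry steps were low in both groups. CPS1, carbamoyl phosphate synthetase (ENSG00000021826, chromosome 2, 210477682 to 210679107, plus strand), was at 0.99 and 0.43 TPM in the knockdown libraries and at 5.51 and 6.61 TPM in the shCon libraries. On its longest listed transcript of 5821 bases this is about 9.4 and 3.7 fragments against 60.5 and 72.6. The log2 fold change, shrunken by the pseudocount, was -2.06 (95% interval -3.42 to -0.70, limma adjusted p = 0.105), and with a pseudocount of 0.1 it was -3.01. Over all alternatives the CPS1 adjusted p was 0.0792 to 0.298. The CPS1 to ASS1 ratio was 0.0455 and 0.0136 in knockdown and 0.0545 and 0.0941 in control libraries; the 2 groups did not overlap, but shNUP210 replicate 1 was close to shCon replicate 1. Without shNUP210 replicate 2 the log2 difference of that ratio was -0.66, and without shNUP210 replicate 1 it was -2.39, beside -1.52 with all libraries.

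OTC, ornithine transcarbamylase (ENSG00000036473, chromosome X, 38352545 to 38421450, plus strand), was at 0.41 and 0.89 TPM in the knockdown libraries and 1.73 and 1.05 TPM in the shCon libraries. These are about 1 to 5 fragments per library, so no fold is given and OTC was not tested. NAGS, N-acetylglutamate synthase (ENSG00000161653, chromosome 17, 44004546 to 44009063, plus strand), was at 10.8 and 13.1 TPM against 19.8 and 13.1 TPM. The groups overlapped, with shNUP210 replicate 2 and shCon replicate 2 almost equal. Its log2 fold change was -0.41 (95% interval -1.17 to 0.36, limma adjusted p = 0.452). Without shCon replicate 1 it was -0.12, so that library carries most of the NAGS difference.

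The carriers did not pass the test. SLC25A15, the ornithine and citrulline exchanger (ENSG00000102743, chromosome 13, 40789412 to 40810111, plus strand), was at 16.0 and 22.1 TPM in the knockdown libraries and 31.7 and 24.4 TPM in the shCon libraries. Its groups were separate by a narrow margin, with a log2 fold change of -0.54 (95% interval -1.20 to 0.11, limma adjusted p = 0.267). Without shNUP210 replicate 1 it was -0.32 and without shCon replicate 1 it was -0.36. SLC25A13, citrin, which exports aspartate in exchange for glutamate (ENSG00000004864, chromosome 7, 96120220 to 96322147, minus strand), was at 25.4 and 29.96 TPM against 25.5 and 18.6 TPM. These groups overlapped, and the log2 fold change of 0.33 (95% interval -0.28 to 0.93, limma adjusted p = 0.448) stood beside a median of 0.23 for all tested genes. It was 0.11 without shCon replicate 2, 0.21 without shNUP210 replicate 2 and 0.54 without shCon replicate 1. SLC25A12, its paralog, was at 0 to 0.64 TPM over the 4 libraries, so citrin was the aspartate carrier above 1 TPM. A planned ratio of these paralogs could not be formed, since SLC25A12 is listed at 0 in 1 library. Within a library there were 1.59 and 1.36 SLC25A13 transcripts per SLC25A15 transcript in knockdown cells and 0.805 and 0.764 in controls, a log2 difference of 0.91 with no overlap.

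Summed over the 9 genes, urea cycle transcripts came to 176.7 and 201.9 TPM in the knockdown libraries and 349.3 and 282.2 TPM in the shCon libraries. Their make-up differed as well. ARG2 took 28.5 and 26.6% of the sum in knockdown libraries and 9.33 and 8.02% in controls. ASS1 and ASL held 28.96 and 30.2% in shCon replicate 1 and 24.9 and 38.4% in shCon replicate 2, and 12.3 and 24.6% and 15.6 and 20.5% in shNUP210 replicates 1 and 2. The SLC25A13 share was 14.4 and 14.8% against 7.30 and 6.61%. CPS1 and OTC took at most 2.34% each in any of the 4 libraries. The stacked plot of these shares shows ARG2 and SLC25A13 widening as ASS1 and ASL narrow. Shares of a sum depend on each other, so a wider share need not be a higher level. In TPM the SLC25A13 groups overlapped, while ARG2 was higher in both knockdown libraries.

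**Figure D4:**
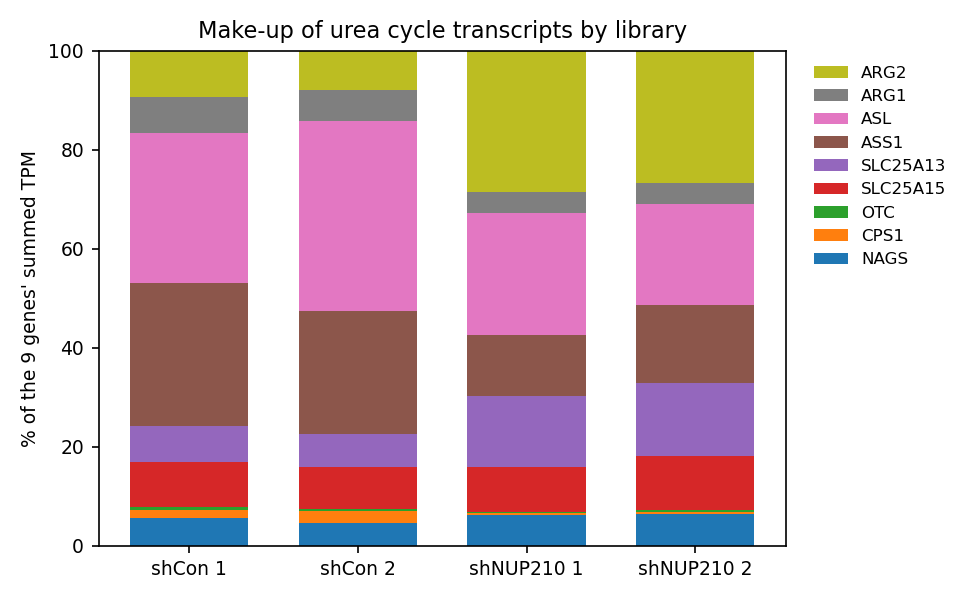
Share of each gene in the summed TPM of the 9 urea cycle genes (% of the sum), one bar per library. ARG2 makes up 26.6 to 28.5% of the shNUP210 bars and 8.02 to 9.33% of the shCon bars.

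Genes that feed the cycle or use its intermediates were read from 7 lists with 116 symbols, of which 76 were tested. Of the 76, 4 were called lower and 2 higher, beside 1.07% and 1.79% of all tested genes. The median log2 fold change of the 76 was -0.0498, beside 0.23 for all tested genes. In the ammonia and glutamate list (10 tested, 1 lower, 2 higher, median -0.22), SLC25A22, a mitochondrial glutamate carrier, was at 17.4 and 16.1 TPM against 39.3 and 40.4 TPM and fell by 1.20 (limma adjusted p = 0.0455). SLC38A2, a glutamine transporter of the plasma membrane, was at 210.5 and 200.5 TPM against 103.6 and 71.0 TPM and rose by 1.25 (adjusted p = 0.0426). GLUD1, glutamate dehydrogenase, which releases ammonia from glutamate in the mitochondrion, was at 170.7 and 156.0 TPM against 90.2 and 99.0 TPM and rose by 0.78 (adjusted p = 0.0455). The SLC38A2 and GLUD1 calls ended under each of the 4 other scalings, that of GLUD1 also with a pseudocount of 0.1, and 464 bases of GLUD1 exons overlap FAM35A on the opposite strand, which was at 430.3 and 415.0 TPM against 248.9 and 232.5 TPM; its part in the GLUD1 value was not tested. GLUL, glutamine synthetase, the other route of ammonia removal in liver, was at 587 and 495 TPM against 647 and 616 TPM and did not pass (adjusted p = 0.258).

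Around arginine and ornithine, 1 of 18 tested genes was lower and 0 higher by limma adjusted p, with a median of -0.14. At an unadjusted p under 0.05, 3 were lower and 1 higher, beside 5.95% and 18.4% of all tested genes. The called gene was GAMT, which completes creatine from the guanidinoacetate made of arginine. It was at 388.2 and 415.5 TPM in the knockdown libraries and 785.1 and 835.2 TPM in the shCon libraries and fell by 1.01 (SE 0.086, limma adjusted p = 0.00999). GATM, the enzyme before it, was at 148 and 177 TPM against 143 and 151 TPM (adjusted p = 0.555). OAT and ODC1, which draw on ornithine, had log2 fold changes of -0.11 and 0.25, and ALDH4A1, which oxidises a proline and ornithine product to glutamate, had -1.11 (adjusted p = 0.0675). The malate-aspartate list had 0 of 6 called by limma and 0 at an unadjusted p under 0.05, with the widest value at GOT1 (-0.41, adjusted p = 0.247). The pyrimidine list, which holds CAD, the cytosolic carbamoyl phosphate synthetase, likewise had 0 of 3 called and 0 at an unadjusted p under 0.05. CAD was at 21.7 and 18.5 TPM against 17.2 and 21.7 TPM, above CPS1 in every library, and the widest value was UMPS (0.57, adjusted p = 0.304). Of the urea transport list only AQP3 passed the filter, and it was not called (0.77, limma adjusted p = 0.262, unadjusted p = 0.0847).

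Of 30 other SLC25 carriers tested, 1 was called lower, SLC25A22, and 0 higher by limma (4 lower and 0 higher at an unadjusted p under 0.05), with a median of 0.0091. Among 12 regulators of urea cycle genes or their proteins, 2 were called lower, CEBPA and CEBPB, and 0 higher. At an unadjusted p under 0.05, 3 of the 12 were lower and 2 higher. Of all tested genes, 1.07% were called lower and 1.79% higher. At an unadjusted p under 0.05, 5.95% were lower and 18.4% higher. CEBPA and CEBPB are basic leucine zipper factors of hepatocyte gene expression, with log2 fold changes of -0.62 and -0.81 (limma adjusted p 0.0334 and 0.0421). Exons of 2 antisense RNAs overlap CEBPA by 659 and 482 bases. The first was at 1445 and 1752 TPM in the knockdown libraries and 2043 and 2100 TPM in the shCon libraries. The other was at 1303 and 1313 TPM against 1710 and 1557 TPM. Their part in the CEBPA value was not tested. None of the 6 calls in these lists held without any 1 of the 4 libraries (limma adjusted p 0.0635 to 0.187). MYC, an E-box factor, and HIF1A, the hypoxia factor, had -0.59 and 0.84 (adjusted p 0.0964 and 0.0675).

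**Figure D5:**
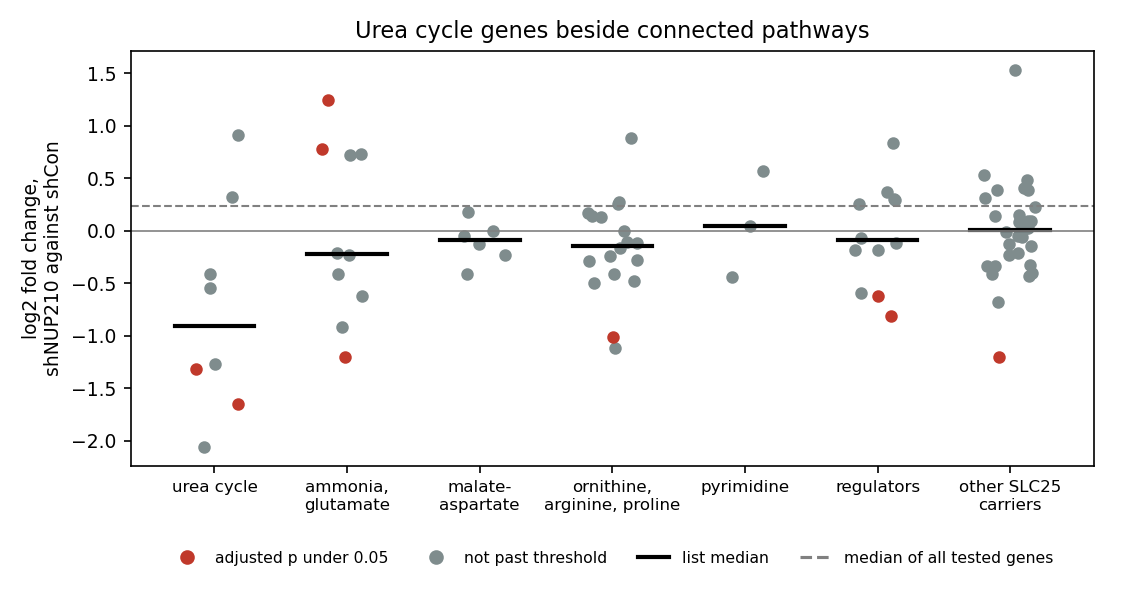
Log2 fold changes (shNUP210 against shCon) of the tested genes in the urea cycle and 6 connected lists, n = 2 libraries per group, with called genes in red, list medians as bars and the median of all tested genes dashed. The urea cycle median, -0.90, includes CPS1, which reached 5 TPM in the shCon libraries alone. The other medians lie between -0.22 and 0.048.

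By distance between log2 profiles over the 4 libraries, each centred on its own mean, the protein-coding genes nearest to ASL were APOA1, the main protein of high-density lipoprotein (distance 0.0477), ABCB6, an ATP-binding cassette transporter (0.0595), and CD7, a surface glycoprotein (0.0684). Nearest to ASS1 were STC2, stanniocalcin (0.121), PLAC8 (0.133) and the zinc transporter SLC39A5 (0.355). Nearest to CPS1 were PRAP1 (0.114), ACVR1, a receptor kinase for activins and bone morphogenetic proteins (0.290), and the plasma glycoprotein A1BG (0.290). Exons of other listed genes overlap A1BG and SLC39A5. With 4 libraries such likeness is a description.

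The hepatocyte identity of the cells was checked by 10 markers, all of them detected, with a summed level of 31905 and 32568 TPM in the knockdown libraries and 45893 and 47532 TPM in the shCon libraries; most of that gap was APOA2, at 16903 and 17350 TPM against 26123 and 28243 TPM. Of the 10, 4 were called lower (APOA1, APOA2, SERPINA1 and TF) and 0 higher, beside 1.07% and 1.79% of all tested genes. The median log2 fold change of the list was -0.00039. TTR, HNF4A and AFP were above both controls in both knockdown libraries without passing the test (0.56, 0.30 and 0.11, with limma adjusted p = 0.0501 for TTR), and ALB, APOB and FGB had values between -0.012 and 0.032. Among markers, other than cycle enzymes, of the periportal hepatocytes that carry the cycle in liver, PCK1 was under 1 TPM in every library, HAL was at 0.30 and 1.52 TPM against 2.79 and 1.56 TPM, SDS at 0 and 0 TPM against 0.44 and 1.04 TPM, and GLS2 at 1.39 and 3.12 TPM against 3.12 and 3.44 TPM. The pericentral list (7 of 8 listed) summed to 628 and 537 TPM against 683 and 646 TPM, nearly all of it GLUL, and its widest other value was TBX3 (log2 fold change 0.76, limma adjusted p = 0.164). Enterocyte markers, searched because intestine also expresses CPS1 and OTC, summed to 174 and 131 TPM against 127 and 98.9 TPM, mostly VIL1 (log2 fold change 0.68, limma adjusted p = 0.1003), with CDX2 at 21.2 and 15.0 TPM against 38.0 and 18.1 TPM and FABP2 under 1 TPM in every library. The cholangiocyte list (4 of 5 listed) summed to 275 and 243 TPM against 164 and 143 TPM, led by KRT19, which was called higher. EPCAM, of the same list, was at 19.2 and 16.9 TPM against 32.9 and 32.5 TPM (log2 fold change -0.82, limma adjusted p = 0.0917), and SOX9 had -0.091. The fibroblast list (4 of 6 listed) summed to 36.2 and 19.2 TPM against 10.7 and 15.2 TPM. Its widest value was COL1A1, at 18.9 and 7.55 TPM against 1.25 and 3.80 TPM (log2 fold change 1.99, limma adjusted p = 0.136). COL1A1 reached 5 TPM in the knockdown libraries alone, and PDGFRB had a log2 fold change of 0.26. The immune genes LYZ and CD68 (2 of 5 immune markers listed) summed to 40.7 and 22.0 TPM against 161 and 142 TPM, mostly LYZ, which was called lower. An antisense RNA that overlaps LYZ by 599 exon bases was at 309 and 357 TPM against 1439 and 1458 TPM. Its part in the LYZ value was not tested. The endothelial marker STAB2 was at 0 in 3 libraries and 4.15 TPM in shCon replicate 2. The part of these marker differences in the urea cycle results was not tested, and in bulk RNA fewer cells of a kind and less RNA per cell cannot be told apart.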

How the data were processed

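Per the labels' protocols, Trizol was used to extract total RNA of Huh7 cells, and Illumina TruSeq libraries were sequenced. The authors deposited 1 table of TPM per library, not pooled. Column totals of 999992.7 to 999997.8 gave the unit. Trimmomatic, STAR, RSEM and DESeq with hg38 are named in the submitters' processing notes, with an annotation release not given in the sources used here.

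Grouping followed the titles. limma 3.58.1 (R 4.3.3) with a mean-variance trend was fitted to log2(TPM + 1) for 10140 genes with at least 5 TPM in 2 libraries, with two-sided Benjamini-Hochberg adjusted p and a threshold of 0.05. The filter and the use of unscaled TPM follow an earlier analysis, where they were chosen with counts of calls in view. The fit was tested on simulated data. The members, lists and tests were chosen with earlier results of these data known. Named genes are the members, NUP210, called genes of the lists, the widest value of lists without calls, overlapping genes, and the 3 nearest profiles of CPS1, ASS1 and ASL; others were added as context after their values were seen. Positions and exon overlaps are from GENCODE 29 (GRCh38). Fragments were estimated from TPM, transcript length and the lowest values of single-transcript genes, so read depth is approximate and no counting interval is given. Alternatives were other scalings, pseudocounts, filters, no trend, a replicate block and leaving out each library. The summed level of the periportal list is not reported here.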

Additional observations from a re-analysis of the deposited data

How the results depend on the processing

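Of 112 alternative values of the 8 tested urea cycle genes, 0 changed sign, 16 lost a call and 0 gained one. The count of members called lower by limma (2) was 1 with a pseudocount of 0.1 or a filter of 1 TPM in 2 libraries. It was 0 with no filter or no mean-variance trend, and no member call held without any 1 library. At an unadjusted p under 0.05, 4 members were lower as deposited, beside 5.95% of all tested genes. Under each of the 4 other scalings 5 were lower, with no share over all genes computed. Lower calls over all genes also rose under these scalings, from 109 to between 116 and 230. The pathway lists had 4 genes lower and 2 higher. These counts were 8 and 0 with median-ratio, 9 and 0 with upper-quartile and 8 and 0 with trimmed-mean scaling, with 0 higher after quantile normalization. There was 1 higher with a pseudocount of 0.1, 1 lower and 0 higher with a filter of 1 TPM, and 0 in each direction with no filter, no trend or any 1 library left out. Over all genes, 290 were called, against 57 when 1 TPM in 2 libraries was enough, 14 unfiltered, 0 with no trend and 4 to 27 without 1 library. The replicate block gave 0 members lower and 0 higher (limma adjusted p 0.0833 for ASS1 and 0.0533 for ASL), 1 pathway gene lower and 0 higher, and 63 genes in all; same-numbered libraries shared only their number (correlation of deviations 0.023). CPS1 in the knockdown libraries (about 9.4 and 3.7 fragments) and OTC in every library (about 1 to 5) are limited by few fragments.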
